A study of Mus musculus with 5 samples.

Results

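The S100 and annexin genes code for calcium-binding proteins and were taken from the mouse kidney tables by symbol: every gene named S100a with a number, S100b, S100g, S100z or Anxa with a number. This gave 28 of the 35478 listed genes, 16 of them S100 genes and 12 annexin genes, and 21 of the 28 (11 S100 and 10 annexin genes) had enough counts to be tested among 16394 genes. The libraries came from the kidneys of 5 mice, male and 7 to 8 weeks old by the study's methods. The labels give the strain as C57BL/6J and the methods as C57BL/6J;129. There were 2 Prdm16fl/fl mice (numbered 1 and 3) and 3 Ksp-Cre/Prdm16fl/fl mice (numbered 1, 2 and 3), with 1 library per mouse. All 5 mice carried the floxed Prdm16 allele and all underwent unilateral ischaemia-reperfusion injury (UIRI). The left renal pedicle was clamped for 35 min at 38.5 °C, the right kidney was removed on day 10, and the injured left kidney was collected on day 11. Ksp-Cre is a Cre recombinase driven by the kidney-specific cadherin promoter, so the deletion (loxP sites around exon 9 of Prdm16) was directed to tubular epithelium while the other kidney cells kept the allele intact. The methods describe the tissue as cortex and the labels as kidney. No uninjured kidney was analysed here, so each comparison is between the genotypes after injury.

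S100 proteins are small proteins with EF-hand calcium-binding loops, and most work as dimers that bind a partner protein when calcium rises. Annexins bind negatively charged phospholipids in the presence of calcium and act at membranes in trafficking, surface proteolysis and repair. Several of them bind an S100 dimer as a partner. In the kidney, S100g (calbindin-D9k) ferries calcium through cells of the distal convoluted and connecting tubule, S100a8 and S100a9 form the calprotectin of neutrophils and monocytes, and Anxa1, Anxa2 and S100a6 are familiar transcripts of injured tubules.

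S100g, the calcium ferry of the distal nephron, was the member with the largest difference: 556 ± 78.5 CPM (counts scaled to 1000000 per library; SD, n = 2) in the Prdm16fl/fl kidneys and 166 ± 69.1 (SD, n = 3) in the Ksp-Cre/Prdm16fl/fl kidneys, 3.35-fold lower. Anxa3 stood at 85.0 ± 7.19 against 154 ± 15.9 CPM, S100a6 at 71.3 ± 15.7 against 125 ± 21.2 CPM and Anxa1 at 40.0 ± 7.27 against 61.2 ± 8.12 CPM, each higher in the Ksp-Cre/Prdm16fl/fl kidneys. By edgeR's quasi-likelihood test, with a call needing a Benjamini-Hochberg adjusted p below 0.05 and a log2 difference beyond ±1, 0 of the 21 genes were called higher (0.0793% of all genes tested) and 0 were called lower (0.628%). At an unadjusted p below 0.05 the same fit held 4 of 21 genes higher (7.64% of all genes) and 2 of 21 lower (11.2%). DESeq2 called 0 genes higher (0.771%) and 1 lower, S100g (2.43%), and at adjusted p alone it held 2 genes as higher, S100a6 and Anxa3 (1.98%), and S100g again as lower (5.56%). In bulk kidney, fewer cells of a type and less RNA per cell cannot be told apart.

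Promoter windows of the 3 members with the smallest unadjusted p that had a single entry in the RefSeq promoter table are given so that the sequence around the start site stands beside the values of the genes that differed most clearly. The table (build GRCm38.p6) held 22 of the 28 genes and had no entry for S100a2, S100a10, S100a14, Anxa3, Anxa6 and Anxa13. Each window runs 5′ to 3′ on the gene's strand from 250 bases before the transcription start to 50 after it. Capitals mark exact matches to 4 short motifs on either strand, so a match on the opposite strand shows its reverse complement. The TATA box was searched for as TATAAA. The binding site of AP-1 was searched for as TGANTCA. The half-site of nuclear receptors was searched for as AGGTCA. The GC box was searched for as GGGCGG. No matches overlapped in these windows. The windows lie at chrX:162964550-162964849 (minus strand, S100g), chr3:90612644-90612943 (plus strand, S100a6) and chr19:20390622-20390921 (minus strand, Anxa1).
S100g: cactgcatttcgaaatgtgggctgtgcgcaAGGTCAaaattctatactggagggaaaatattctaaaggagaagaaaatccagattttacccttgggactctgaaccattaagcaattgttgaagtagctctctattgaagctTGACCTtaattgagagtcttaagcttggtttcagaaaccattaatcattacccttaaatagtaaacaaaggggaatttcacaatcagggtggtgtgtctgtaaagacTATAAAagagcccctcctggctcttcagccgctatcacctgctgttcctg
S100a6: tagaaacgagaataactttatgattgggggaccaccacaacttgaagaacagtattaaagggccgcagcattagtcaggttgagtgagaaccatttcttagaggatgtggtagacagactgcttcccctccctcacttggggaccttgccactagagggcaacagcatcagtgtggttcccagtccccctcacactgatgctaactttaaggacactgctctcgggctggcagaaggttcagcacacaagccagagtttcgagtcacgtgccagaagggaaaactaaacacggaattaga
Anxa1: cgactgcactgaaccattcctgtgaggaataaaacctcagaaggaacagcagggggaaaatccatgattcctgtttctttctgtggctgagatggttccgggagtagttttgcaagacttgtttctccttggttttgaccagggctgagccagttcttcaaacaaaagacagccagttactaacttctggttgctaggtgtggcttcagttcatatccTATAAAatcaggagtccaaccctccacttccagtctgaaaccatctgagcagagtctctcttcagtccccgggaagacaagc
The S100g window held 2 nuclear receptor half-site matches and 1 TATA box match, which began at position 1, on the listed start itself. The Anxa1 window held 1 TATA box match at position -32 from the start, and the S100a6 window held no match to any of the 4 motifs. Of 32851 windows in the table, 13.6% held the TATA box letters, 7.81% those of AP-1, 16.3% the half-site and 35.7% the GC box. Among the 29 windows of the 22 matched genes the shares were 27.6%, 13.8%, 27.6% and 31.0%. These are matches of letters only.

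The libraries held 14939040 to 16425161 counts assigned to genes, so 3 counts corresponded to 0.170 to 0.215 CPM. The library of Ksp-Cre/Prdm16fl/fl mouse 3 stood apart, with log2 CPM correlations of 0.957 and 0.960 with its group mates, which had 0.991 with each other. Those group mates had higher correlations, 0.970 to 0.976, with the Prdm16fl/fl kidneys than with mouse 3. Values without Ksp-Cre/Prdm16fl/fl mouse 3 are therefore given where it changes a result. Prdm16 itself was at 25.3 and 20.0 CPM in the Prdm16fl/fl kidneys and at 17.1, 17.0 and 18.0 CPM in the Ksp-Cre/Prdm16fl/fl kidneys. The Prdm16 log2 fold change was -0.38 (edgeR adjusted p = 0.259, DESeq2 adjusted p = 0.343). Bulk kidney also holds cells in which Ksp-Cre is not active, and reads outside exon 9 still count toward the gene. The part of either in the Prdm16 values was not tested. Marker lists of other cells moved with genotype: on the log2 scale against the Prdm16fl/fl mean, the median of 8 tubular injury markers was 1.26, 0.96 and 0.90 and that of 8 proximal tubule markers -1.39, -1.18 and -1.71 in the 3 Ksp-Cre/Prdm16fl/fl kidneys, and their part in the S100 and annexin values was not tested. Across all genes tested the log2 fold changes had a median of 0.04.

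**Figure D1:**
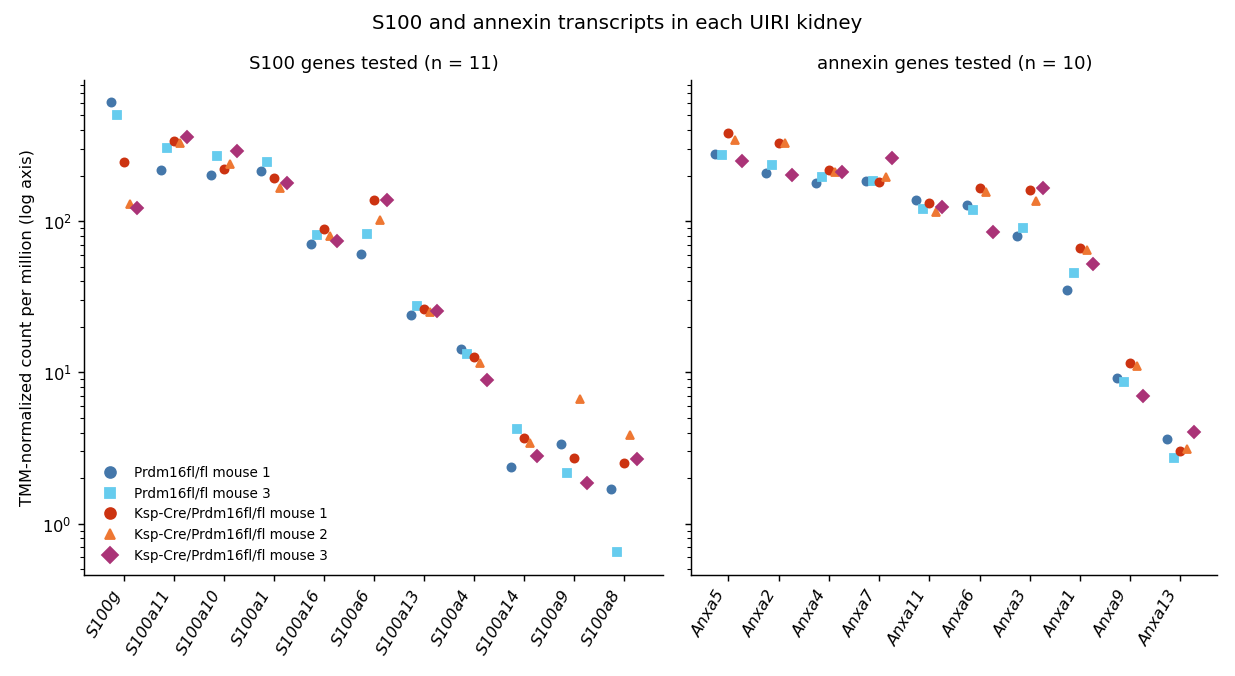
TMM-normalized CPM (log axis) of the 11 S100 and 10 annexin genes tested, 1 point per mouse, ordered by their Prdm16fl/fl mean. S100g is the member whose 3 Ksp-Cre/Prdm16fl/fl points sit furthest below the Prdm16fl/fl points (245, 130 and 122 against 611 and 500 CPM), while the points of Anxa3 and S100a6 sit above.

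The 28 genes spanned a wide range of levels. Compared per length, S100g ranked highest in both Prdm16fl/fl kidneys, at 2923 and 2170 TPM (transcripts scaled per length to 1000000 in each library), and stood at 1371, 726 and 606 TPM in the Ksp-Cre/Prdm16fl/fl kidneys, where S100a11 ranked highest at 1802, 1751 and 1717 TPM. The S100g share of all S100 TPM was 49.9% and 38.9% in the Prdm16fl/fl kidneys against 23.9%, 14.9% and 12.7%. S100a11, a partner of Anxa1 in membranes and cornified envelopes, took 17.0% and 22.5% against 31.4%, 36.0% and 35.9%, so the leading S100 transcript changed from S100g to S100a11 in all 3 Ksp-Cre/Prdm16fl/fl kidneys. Without S100g the other S100 genes summed to 3165 ± 334 TPM (SD, n = 2) against 4225 ± 123 TPM (SD, n = 3). The 12 annexin genes summed to 1309 and 1228 TPM against 2101, 1986 and 1478 TPM, and Anxa5 led the annexins in each of the 5 kidneys. These TPM sums are not TMM-scaled. The S100 sum without S100g was made in TPM only, so its difference may depend on the scaling and is not read as a rise. In TMM-normalized CPM the annexins summed to 1242 and 1275 against 1650, 1569 and 1365. All S100 genes, S100g included, summed to 1424 and 1531 CPM against 1273, 1096 and 1211 CPM. After S100g, the S100 genes highest by TPM were S100a11, S100a10 and S100a1. By CPM only S100a11 was higher in every Ksp-Cre/Prdm16fl/fl kidney, while S100a10 overlapped and S100a1 was lower.

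At the other end, S100a5 and Anxa10 had 0 counts in all 5 libraries, which allows a level of up to 3 counts (0.170 to 0.215 CPM, for counting error only). S100a2 had 2 counts in all and S100z had 2. S100b, the S100 gene of Schwann cells and glia, had 1 to 8 counts per library, S100a3 had 2 to 8 and Anxa8 had 5 to 24, the 24 in Ksp-Cre/Prdm16fl/fl mouse 3. Differences in these 7 genes were not detectable at this depth.

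Among the S100 genes with an annexin partner, S100a6 (calcyclin, which binds Anxa11 and Anxa2) differed most. It was at 60.2 and 82.4 CPM in the Prdm16fl/fl kidneys (mice 1 and 3) and at 137, 101 and 138 CPM in the Ksp-Cre/Prdm16fl/fl kidneys (mice 1, 2 and 3), the order kept for all values that follow. Every Ksp-Cre/Prdm16fl/fl kidney was above both Prdm16fl/fl kidneys. The log2 fold change was 0.81 (SE 0.21, 95% interval 0.30 to 1.32), with an edgeR adjusted p of 0.121. The adjusted p was 0.0184 by DESeq2, 0.0250 by edgeR without Ksp-Cre/Prdm16fl/fl mouse 3, and 0.0184 to 0.525 over all alternatives.

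S100a11 was at 218 and 303 CPM against 338, 329 and 362 CPM, so the groups did not overlap, but the Prdm16fl/fl kidneys differed from each other by more than the Ksp-Cre/Prdm16fl/fl kidneys did. Its log2 fold change was 0.40 (SE 0.17, edgeR adjusted p = 0.294). S100a10 (p11), the light chain that holds Anxa2 at the plasma membrane, was at 203 and 268 CPM against 222, 240 and 293 CPM. The S100a10 groups overlapped, with a log2 difference of 0.09 and a 95% interval of -0.36 to 0.55, and of -0.02 without Ksp-Cre/Prdm16fl/fl mouse 3. With the trend of fold change with gene length removed, the S100a10 difference was 0.49 (edgeR adjusted p = 0.269) and that of S100a11 0.85 (edgeR adjusted p = 0.0874).

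The partners did not keep 1 ratio in all kidneys. The ratio of S100a10 to Anxa2 by TPM was 2.72 and 3.16 against 1.86, 2.02 and 4.01. Ksp-Cre/Prdm16fl/fl mice 1 and 2 were below both Prdm16fl/fl kidneys and mouse 3 above them. The ratio of S100a11 to Anxa1 was split the same way, at 17.3 and 18.6 against 14.0, 14.0 and 19.3. The ratio of S100a6 to Anxa11 did not overlap between the groups, at 1.51 and 2.35 against 3.59, 3.02 and 3.83. Anxa11, an annexin that links RNA granules to lysosomes, differed by a log2 fold change of -0.06 (SE 0.12), so the higher S100a6 was not matched by a like difference in this partner.

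**Figure D2:**
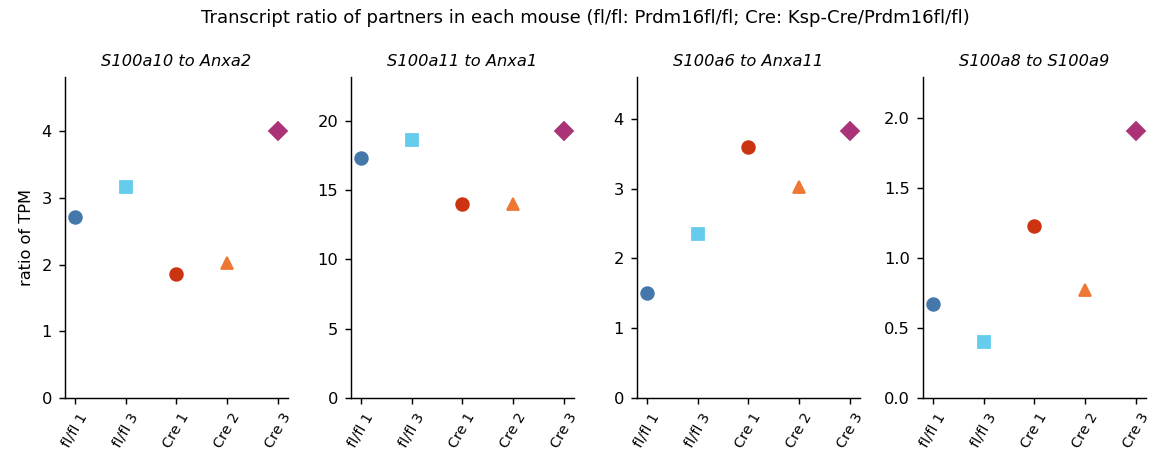
Ratio of TPM between an S100 gene and its partner in each of the 5 mice, 1 panel per pair, with each ratio axis starting at 0. Ksp-Cre/Prdm16fl/fl mouse 3 is the highest point in every panel, at 4.01 for S100a10 to Anxa2 and 1.91 for S100a8 to S100a9.

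The calprotectin genes were near the low end. S100a8 had 25 and 9 counts against 44, 65 and 40 counts (1.69 and 0.65 CPM against 2.50, 3.84 and 2.67 CPM). Its groups did not overlap and its log2 fold change was 1.35 (SE 0.48, 95% interval 0.19 to 2.51, edgeR adjusted p = 0.211). Leaving out Prdm16fl/fl mouse 1 gave 2.20 and leaving out Prdm16fl/fl mouse 3 gave 0.83, and leaving out any mouse of the other group gave a value between these. S100a9, its partner in the calprotectin dimer, had 50 and 30 counts against 48, 113 and 28 counts. Here the groups overlapped, Ksp-Cre/Prdm16fl/fl mouse 2 alone was high, and the log2 fold change was 0.44 (SE 0.59, edgeR adjusted p = 0.727, or 0.76 if Ksp-Cre/Prdm16fl/fl mouse 3 is left out and -0.26 if mouse 2 is).

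Neutrophil markers were higher as a sum in each Ksp-Cre/Prdm16fl/fl kidney, but not gene by gene. The summed CPM of the 10 listed genes was 15.1 and 15.5 in the Prdm16fl/fl kidneys and 23.4, 26.9 and 17.9 in the Ksp-Cre/Prdm16fl/fl kidneys. Only 4 of the 10 were abundant enough to test, and edgeR with all 5 mice called 0 of them. Cxcr2, the neutrophil chemokine receptor, was at 0.607 and 0.431 CPM against 2.67, 2.30 and 2.20 CPM and was called higher by DESeq2 (adjusted p = 0.00355) and, with Ltf, by edgeR without Ksp-Cre/Prdm16fl/fl mouse 3 (Cxcr2 adjusted p = 0.00492, within a range of 0.00355 to 0.525 over its alternatives). Mpo was at 0 in all 5 libraries, and Ly6g, Camp and Elane had at most 3 counts in each. The red cell markers also moved, with the 4 genes summing to 6.61 and 10.7 CPM against 147, 146 and 39.4 CPM. Macrophage and monocyte markers summed to 1010 and 1396 CPM against 1636, 1492 and 748 CPM, overlapping between the groups. The part of these cells in the S100a8 values was not tested.

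S100g was then set beside its nephron segment. It was at 611 and 500 CPM against 245, 130 and 122 CPM. The highest Ksp-Cre/Prdm16fl/fl value was below the lowest Prdm16fl/fl value. The log2 fold change was -1.75 (SE 0.33, 95% interval -2.54 to -0.95), with an edgeR adjusted p of 0.0658. S100g fell by DESeq2 (adjusted p = 2.43e-05) and by edgeR without Ksp-Cre/Prdm16fl/fl mouse 3 (log2 fold change -1.56, adjusted p = 0.00560), and its adjusted p ran from 2.43e-05 to 0.521 over all alternatives. Leaving out each mouse in turn kept the log2 fold change between -2.14 and -1.56. It was -1.32 once the trend of fold change with gene length was removed (edgeR adjusted p = 0.123).

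The other genes of the distal convoluted and connecting tubule did not all follow it. Slc12a3, the thiazide-sensitive sodium chloride cotransporter, was at 1472 and 919 CPM against 801, 559 and 183 CPM. Calb1 (calbindin-D28k), the second calcium ferry of these cells, was at 389 and 216 CPM against 271, 129 and 126 CPM, so its groups overlapped, with a log2 fold change of -0.78 (edgeR adjusted p = 0.364). Trpv5, the apical channel through which calcium enters these cells, was at 43.1 and 30.5 CPM against 90.9, 66.5 and 33.6 CPM. Trpv5 in Ksp-Cre/Prdm16fl/fl mice 1 and 2 was above both Prdm16fl/fl kidneys while S100g was below them, and in mouse 3 Trpv5 lay within the Prdm16fl/fl range. The Trpv5 log2 fold change was 0.79 with all 5 mice (edgeR adjusted p = 0.359) and 1.10 without mouse 3 (edgeR adjusted p = 0.00669, the lowest of a range up to 0.873). Pvalb (parvalbumin), an EF-hand buffer of the early distal convoluted tubule, was at 12.5 and 11.0 CPM against 1.82, 0.413 and 0 CPM, a log2 fold change of -3.93 with all 5 mice (edgeR adjusted p = 0.106) and -3.37 without mouse 3 (edgeR adjusted p = 0.00176, the lowest of a range up to 0.564).

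Of the 5 listed segment markers, 4 had a negative log2 fold change and 0 were called by edgeR with all 5 mice, while without mouse 3 Trpv5 was called higher and Pvalb lower. Their summed CPM, most of it from Slc12a3, relative to the Prdm16fl/fl mean, was 1.23 and 0.765 in the Prdm16fl/fl kidneys and 0.757, 0.494 and 0.23 in the Ksp-Cre/Prdm16fl/fl kidneys. S100g on the same scale was 1.10 and 0.900 against 0.442, 0.234 and 0.219. Divided by the marker sum, S100g was 0.315 and 0.416 against 0.206, 0.167 and 0.337, and the groups overlapped through Ksp-Cre/Prdm16fl/fl mouse 3. The part of the segment markers in the S100g values was not tested.

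**Figure D3:**
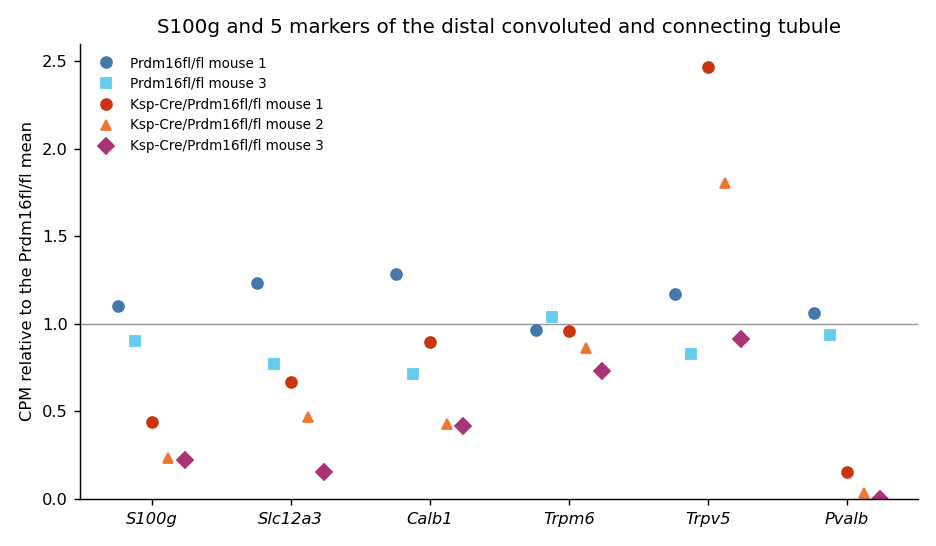
CPM of S100g and of 5 markers of the distal convoluted and connecting tubule, each divided by its Prdm16fl/fl mean (grey line at 1), 1 point per mouse. All 3 Ksp-Cre/Prdm16fl/fl points of S100g lie at or below 0.442, while 2 of the 3 Trpv5 points lie above both Prdm16fl/fl points.

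The remaining S100 genes lie with S100a6, S100a8 and S100a9 on chromosome 3, which holds 13 of the 16 S100 genes. In the deposited coordinates, whose build is not given in the sources used here, S100a1 to S100a9 span chr3:90418341-90603028, and S100a11 and S100a10 lie 3006 and 3041 kb from the S100a1 start. S100a1, the S100 protein of muscle and heart that tunes calcium release, was at 214 and 247 CPM against 193, 165 and 179 CPM, with no overlap. Its log2 fold change was -0.37 (SE 0.13, edgeR adjusted p = 0.223), and it was 0.03 once the trend of fold change with gene length was removed. S100a1 shares 99 bases of exon (16.1% of its merged exons) with S100a13 on the opposite strand, and whether counting used strand is not stated.

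Neighbours in this cluster differed in sign. S100a4 (metastasin, a fibroblast and leukocyte S100) was at 14.3 and 13.2 CPM against 12.6, 11.5 and 8.93 CPM, with no overlap and a log2 fold change of -0.32 (SE 0.20, edgeR adjusted p = 0.445), which was -0.19 if Ksp-Cre/Prdm16fl/fl mouse 3 is left out and 0.07 with the length trend removed. The nearest gene that could be tested was S100a6, on the same strand and with a log2 fold change of 0.81. S100a5, at 0 counts, lies between them, and S100a3, at 2 to 8 counts per library, lies directly before S100a4. The summed fibroblast and myofibroblast markers, relative to the Prdm16fl/fl mean, were 0.807 and 1.19 against 1.97, 1.90 and 1.34. Most of the sum came from Col1a1, Col1a2 and Col3a1. These collagens, Pdgfra and Pdgfrb did not overlap between the groups, while Dcn, Lum, Acta2 and Postn did. The macrophage and monocyte sum was 0.84 and 1.16 against 1.36, 1.24 and 0.622, and the T cell and B cell sums were lowest in mouse 3. The part of these cells in the S100a4 values was not tested. S100a13, S100a14 and S100a16 had log2 fold changes of -0.01 (95% interval -0.32 to 0.30), 0.01 (-0.82 to 0.83) and 0.09 (-0.23 to 0.40).

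Over the 11 S100 genes tested, 7 log2 fold changes were positive and 4 negative, with a median of 0.09 against 0.04 for all genes. The medians of the 3 Ksp-Cre/Prdm16fl/fl kidneys against the Prdm16fl/fl mean were 0.03, 0.07 and -0.03, within the 0.10 by which each Prdm16fl/fl kidney lay from that mean. The family median of each kidney thus lay within the spread between mice, with S100g and S100a8 as the extremes.

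Most annexins had the opposite sign to S100g. Of 10 tested, 9 log2 fold changes were positive, from -0.06 to 0.85, with a median of 0.20 against 0.04 for all genes, of which 8857 of 16394 were positive, and edgeR called 0. The annexin medians of the 3 Ksp-Cre/Prdm16fl/fl kidneys against the Prdm16fl/fl mean were 0.39, 0.32 and 0.06, against 0.01 and -0.01 in the Prdm16fl/fl kidneys, so mouse 3 lay close to the Prdm16fl/fl kidneys. Anxa3, an annexin of tubular and myeloid cells, was at 80.0 and 90.1 CPM against 160, 136 and 165 CPM. The lowest Ksp-Cre/Prdm16fl/fl kidney was well above the highest Prdm16fl/fl kidney. The log2 fold change was 0.85 (SE 0.14, 95% interval 0.51 to 1.20), with an edgeR adjusted p of 0.0548. Anxa3 rose by DESeq2 (adjusted p = 1.51e-04) and by edgeR without Ksp-Cre/Prdm16fl/fl mouse 3 (adjusted p = 0.00343), within a range of 1.51e-04 to 0.521 over all alternatives, and leaving out each mouse in turn gave 0.77 to 0.94. The 5 kidneys had the same order from low to high for Anxa3 and S100a6: Prdm16fl/fl mice 1 and 3, then Ksp-Cre/Prdm16fl/fl mice 2, 1 and 3. For S100a6 the last 2 differed only as 137 and 138 CPM, and the share of all genes with this order was not counted.

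Anxa1, the glucocorticoid-responsive annexin that signals through formyl peptide receptors, was at 34.9 and 45.1 CPM against 66.8, 64.9 and 51.9 CPM, without overlap. The log2 fold change was 0.61 (SE 0.18, 95% interval 0.19 to 1.04, edgeR adjusted p = 0.147), and it was 0.72 without Ksp-Cre/Prdm16fl/fl mouse 3 (adjusted p = 0.00696, the lowest of a range up to 0.565 over all alternatives). Anxa4, an annexin of apical epithelial membranes, was at 179 and 195 CPM against 217, 210 and 211 CPM. Its groups did not overlap, and its log2 fold change was 0.18 (SE 0.12, edgeR adjusted p = 0.443).

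Ksp-Cre/Prdm16fl/fl mouse 3 separated from its group mates in 3 abundant annexins. Anxa2, the plasminogen and tissue plasminogen activator receptor of the cell surface, was at 207 and 235 CPM against 330, 329 and 202 CPM. Anxa5, the phosphatidylserine-binding annexin used to stain dying cells, was at 279 and 273 CPM against 383, 346 and 249 CPM. Anxa6, the annexin with a doubled core that works in endocytosis and cholesterol traffic, was at 128 and 119 CPM against 166, 157 and 85.4 CPM. In each of the 3 genes, mice 1 and 2 were above both Prdm16fl/fl kidneys and mouse 3 below them. With all 5 mice the log2 fold changes were 0.38, 0.24 and 0.14 (edgeR adjusted p = 0.447, 0.560 and 0.831). Without mouse 3 they were 0.58, 0.40 and 0.39 (edgeR adjusted p = 0.00800, 0.0337 and 0.0314, each the lowest of ranges up to 0.826, 0.901 and 0.980). Summed macrophage and monocyte markers were at 0.622 of the Prdm16fl/fl mean in mouse 3 and at 1.36 and 1.24 in mice 1 and 2. Single markers were mixed: Adgre1 and Ccr2 had the same split, but Cd68 did not (21.2 and 30.5 CPM against 28.6, 25.7 and 27.4 CPM). The T cell sum (0.929, 1.26 and 0.592) and the B cell sum (0.733, 1.07 and 0.430) were also lowest in mouse 3. The part of these cells in the annexin values was not tested.

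Anxa7 (synexin), which brings secretory granules together, had the opposite split, at 184 and 184 CPM against 182, 197 and 263 CPM, with mouse 3 alone high and a log2 fold change of 0.04 without it. Anxa9 and Anxa13, the latter an annexin of apical transport in epithelia, were both below 12 CPM and had log2 fold changes of 0.15 (95% interval -0.49 to 0.79) and 0.09 (-0.62 to 0.80).

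**Figure D4:**
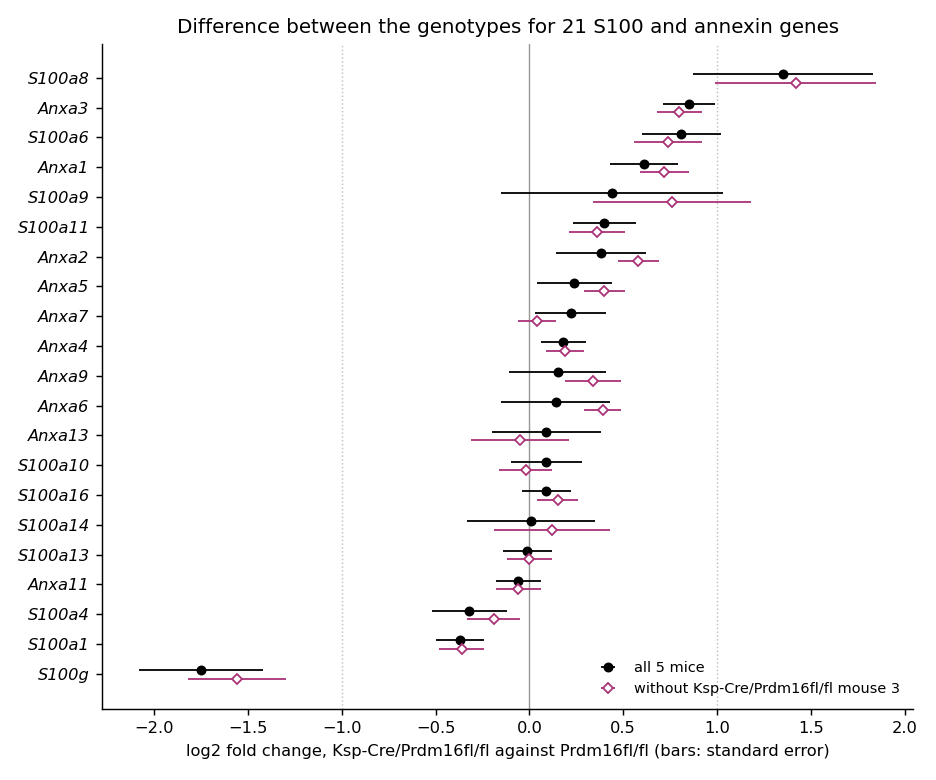
Log2 fold change (Ksp-Cre/Prdm16fl/fl against Prdm16fl/fl) with its standard error for the 21 genes tested, from all 5 mice (filled circles) and without Ksp-Cre/Prdm16fl/fl mouse 3 (open diamonds); dotted lines mark -1 and 1. Anxa2, Anxa5 and Anxa6 move right without that mouse, to 0.58, 0.40 and 0.39, and S100g stays below -1 in both fits.

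Counted by overlap, 6 of 21 genes had every Ksp-Cre/Prdm16fl/fl kidney above every Prdm16fl/fl kidney (28.6%, against 20.3% of all genes tested): S100a6, S100a8, S100a11, Anxa1, Anxa3 and Anxa4. The reverse held for 3 (14.3%, against 21.3%): S100g, S100a1 and S100a4. In either direction the share was 42.9% against 41.6%, near the background. Without Ksp-Cre/Prdm16fl/fl mouse 3, edgeR gave an adjusted p below 0.05 for 6 genes that rose (28.6%, against 7.82% of all genes), of which 5 were annexins, and for 1 that fell (4.76%, against 11.0%). With the fold limit as well, that fit held only S100g as lower (3.10% of all genes), and so did the edgeR fit with no filter on low counts (0.975%).

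Genes that work with these families were taken from lists, in which edgeR with all 5 mice called 0 genes, so those of smallest p are named. Of 9 receptors for S100 proteins and annexin A1, 8 were tested and 5 were positive (median log2 fold change 0.25). Tlr4, a calprotectin receptor, differed by 0.71 (edgeR adjusted p = 0.131) and Bsg (basigin), another S100a9 receptor, by -0.44 (edgeR adjusted p = 0.171). In the plasmin system that Anxa2 and S100a10 assemble, 6 of 7 genes were tested, 3 of them positive (median 0.28). Plaur, the urokinase receptor, differed by 1.30 (edgeR adjusted p = 0.131) and Serpinf2, the plasmin inhibitor, by -1.14 (edgeR adjusted p = 0.0837). DESeq2 called both (adjusted p = 0.00969 and 0.00154, the lowest of ranges up to 0.586 and 0.540), as well as Cd14 among the receptors, and edgeR without Ksp-Cre/Prdm16fl/fl mouse 3 called Plaur.

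Of 10 genes for membrane repair and annexin binding, 9 were positive (median 0.33). Dysf (dysferlin), a calcium sensor that patches torn membranes, was at 39.1 and 36.1 CPM against 62.2, 53.6 and 55.4 CPM, with no overlap (log2 fold change 0.60, edgeR adjusted p = 0.0765). Chmp4b, a filament subunit of the ESCRT membrane-cutting machinery, differed by 0.39 (edgeR adjusted p = 0.168). Ahnak, the scaffold bound by S100a10 and Anxa2, was at 161 and 147 CPM against 255, 230 and 140 CPM, the same split of mouse 3 from its group mates as in Anxa2, and was named after its values were seen. Of 9 copines, which like annexins bind membranes in a calcium-dependent way, 7 were tested and 5 were positive (median 0.26), with Cpne2 at 0.64 and Cpne4 at -1.29 (edgeR adjusted p = 0.119 and 0.193).

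EF-hand proteins of other families ran lower, with 6 of 8 tested genes negative and a median of -0.23. Calml4, a calmodulin-like protein of brush border microvilli, was at 212 and 275 CPM against 138, 145 and 118 CPM (log2 fold change -0.86, edgeR adjusted p = 0.0685), and Pvalb differed by -3.93 (edgeR adjusted p = 0.106). Calb1 and Pvalb are also on the distal tubule list. S100g, an S100 gene by name, thus shared its sign with most EF-hand buffers tested rather than with S100a6 or the annexins.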

How the data were processed

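The deposited tables hold, for each of 5 mouse kidney libraries (2 Prdm16fl/fl, 3 Ksp-Cre/Prdm16fl/fl), counts per gene together with the TPM and FPKM that the authors made from those counts and gene lengths. The submitters' processing notes name CASAVA, featureCounts 2.0.1 and DESeq2 1.16.1; the build they list is a human one, so the mouse build and the aligner are taken as not given in the sources used here. Poly(A) libraries were sequenced by paired-end reads, and 0 genes of the mitochondrial chromosome are listed. Lines of 5 genes broken in the tables were rejoined.

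Counts were tested over 16394 genes with edgeR 4.0.16 (R 4.3.3; filterByExpr, TMM scaling, quasi-likelihood test, no covariates, Benjamini-Hochberg adjustment). CPM are TMM-normalized and 95% intervals are those of the edgeR fit. Alternatives used DESeq2 1.42.0 and limma 3.58.1 on log2(FPKM + 1) and log2(FPKM + 0.1), other scalings and filters, removal of the loess trend with gene length, and each mouse left out. Members and lists were chosen with earlier results of these data known. All S100 and annexin genes are accounted for; of each related list the called genes, or else the 2 of smallest p, are named. Intervals and limits at 0 counts cover counting error or the spread of these mice only. Values of 1 gene of a related list are not reported here. Promoter windows are from RefSeq (GRCm38.p6), and their coordinates are not those of the deposited tables.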

Additional observations from a re-analysis of the deposited data

How the results depend on the processing

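Across 314 values of the 21 genes under the alternatives, 284 kept direction and side of the threshold, 27 changed sign (10 genes) and 3 passed the threshold, all of S100g (-1.74 by DESeq2, -1.74 with no filter on low counts, -1.56 without Ksp-Cre/Prdm16fl/fl mouse 3). The count of genes called higher (0) became 2 by DESeq2 at adjusted p alone and 6 by edgeR without Ksp-Cre/Prdm16fl/fl mouse 3 at adjusted p alone, both settings chosen after seeing the data. The count called lower (0) became 1 in those settings, under DESeq2, with no filter, and without Ksp-Cre/Prdm16fl/fl mouse 3; leaving out each mouse in turn gave 0 to 1, and 0 for the count higher. Leaving out any of the other 4 mice gave 0 calls over all genes. The median of the S100 genes (0.09) was 0.29 with the length trend removed, 0.20 and 0.19 by limma on log2(FPKM + 0.1) and log2(FPKM + 1), 0.20 with library size scaling (which moved the median of all genes from 0.04 to 0.15), and -0.09 to 0.19 with each mouse left out, the -0.09 without Prdm16fl/fl mouse 1. The median of the annexins (0.20) stayed between 0.17 and 0.36 in every alternative.

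Signs changed with the length trend removed for S100a1 (0.03), S100a4 (0.07), S100a13 (0.29) and Anxa11 (0.02), by limma for S100a13 (0.10 with either pseudocount) and Anxa11 (0.05 with either), with library size scaling for S100a13 (0.11) and Anxa11 (0.05), and with upper quartile scaling for S100a13 (0.00). With each mouse left out, log2 fold changes ran from -0.11 to 0.10 for S100a13, -0.36 to 0.48 for S100a14, -0.01 to 0.19 for S100a16, -0.26 to 0.80 for S100a9, -0.09 to 0.31 for S100a10, -0.03 to 0.39 for Anxa6, -0.15 to 0.03 for Anxa11 and -0.10 to 0.31 for Anxa13. Removing the length trend also moved values without a change of sign. S100g went from -1.75 to -1.32, S100a6 from 0.81 to 1.18, S100a11 from 0.40 to 0.85 and S100a10 from 0.09 to 0.49. The cause of these changes was not tested.

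Mouse numbers 1 and 3 occur in both groups. Same-numbered mice did not deviate together (correlations of deviations from the group means 0.001 and -0.022), so the numbers were not taken to pair the samples. With a replicate block for the mouse number, 0 genes were called higher and 0 lower among the 21 and among all genes, the S100 median was 0.02, the annexin median 0.18, and the signs of S100a9 (-0.26), S100a13 (0.01) and Anxa6 (-0.05) changed. Depth limits the 7 untested genes and S100a8, S100a9, S100a14 and Anxa13.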
